A study of Mus musculus with 6 samples.

Results

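Microglia are the resident macrophages of the brain, and 10 genes that mark them or make their complement proteins were followed here: Aif1, Cx3cr1, Csf1r, P2ry12 and Tmem119, the C1q genes C1qa, C1qb and C1qc, and the immune cell genes Cd53 and Cd86. The genes were chosen by name, and every probe carrying one of these names was taken, which gave 13 probes of 55666 on the array and 10 genes of 34788. Expression was measured in 3 brain regions (cortex, hippocampus and olfactory bulb) of male mice of the inbred strain BALB/c aged 8 weeks. The mice received 1 dose through the nose of either saline (0 mg/kg) or PAMAM dendrimers, branched polyamidoamine polymers, at 0.15 mg/kg, and tissue was taken at 24 h. These give 6 groups, which share the strain, sex, age and route, with 1 array each. The RNA on an array was pooled from 6 independent experiments, so the spread between animals is not seen, and whether the 3 regions came from the same mice is not given in the sources used here.

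Microglia depend on the receptor Csf1r for their survival and sense neurons through receptors such as Cx3cr1 and P2ry12. They are the main source of C1q in the brain, the protein that recognises tagged surfaces and starts the classical complement pathway, and in development C1q takes part in the removal of synapses by microglia. C1q is assembled from the products of C1qa, C1qb and C1qc, which lie side by side on chromosome 4 with no other gene between them in RefSeq.

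The C1qa and C1qb signals each rest on 1 spot of a 60-base probe, so these probes are shown, as the array files give them and with their mm9 coordinates.
C1qa (chr4:136452409-136452468, minus strand): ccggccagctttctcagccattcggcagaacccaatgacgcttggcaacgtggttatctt
C1qb (chr4:136436578-136436637, minus strand): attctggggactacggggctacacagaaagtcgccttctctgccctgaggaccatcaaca
The bases before the start site of 4 genes are shown next, because the C1q genes and the identity gene P2ry12 differ in their pattern over the regions below. They come from RefSeq (GRCm38.p6, another build than the probe coordinates), where 6 of the 10 genes had an entry, and each runs 5′ to 3′ over 250 bases up to the start. Capitals mark GGAAGT or its reverse complement ACTTCC, the core letters read by ETS factors such as PU.1, a regulator of macrophage genes.
C1qb (chr4:136886201-136886450, minus strand): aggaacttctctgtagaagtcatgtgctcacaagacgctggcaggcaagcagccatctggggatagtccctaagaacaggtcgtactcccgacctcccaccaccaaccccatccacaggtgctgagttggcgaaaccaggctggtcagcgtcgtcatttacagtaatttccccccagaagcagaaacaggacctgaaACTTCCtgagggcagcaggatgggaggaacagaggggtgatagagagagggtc
C1qc (chr4:136892915-136893164, minus strand): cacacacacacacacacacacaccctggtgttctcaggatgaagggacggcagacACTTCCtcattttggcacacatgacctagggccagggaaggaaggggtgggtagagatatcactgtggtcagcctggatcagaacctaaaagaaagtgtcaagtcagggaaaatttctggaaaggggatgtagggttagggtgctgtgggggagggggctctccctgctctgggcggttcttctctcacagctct
P2ry12 (chr3:59262986-59263235, minus strand): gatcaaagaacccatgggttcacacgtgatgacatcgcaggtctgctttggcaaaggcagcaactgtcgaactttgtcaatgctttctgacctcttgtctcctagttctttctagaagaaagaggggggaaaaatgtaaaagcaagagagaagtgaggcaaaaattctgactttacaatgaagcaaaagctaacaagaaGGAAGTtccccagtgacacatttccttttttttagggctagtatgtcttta
Cx3cr1 (chr9:120068297-120068546, minus strand): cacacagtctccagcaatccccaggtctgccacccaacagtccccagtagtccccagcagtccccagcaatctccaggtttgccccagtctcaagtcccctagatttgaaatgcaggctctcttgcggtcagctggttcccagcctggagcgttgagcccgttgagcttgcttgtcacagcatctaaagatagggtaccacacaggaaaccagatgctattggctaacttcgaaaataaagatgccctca
The letters begin 53 bases before the start in C1qb, 195 in C1qc and 51 in P2ry12, and were not found in the windows of Cx3cr1, Aif1 and Cd53. Of 32851 promoters in the same table, 19.7% hold the letters on either strand. A match is a string of letters, and binding was not measured.

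All values are log2 levels relative to the 75th percentile of the same array, so a value of 1 is a signal at 2 times that percentile, and a gene is shown by its brightest probe unless another is named. The arrays had 34134 to 39057 of 59305 non-control spots well above background and 0 saturated spots. Of the 10 genes, 9 were well above background on all 6 arrays, and Cd53 was on 5. The labels name whole tissues, and in such bulk RNA fewer cells of a type and less RNA per cell cannot be told apart. With 1 array per region and treatment, differences between PAMAM and saline within a region carry no p-value. They are set against spot noise, the SD of a difference expected from repeated spots on the same arrays, which leaves out labelling, hybridisation and animals.

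Among the identity genes, Aif1, which encodes the cytoskeletal protein Iba1 (probe at chr17:35307959-35308018), stood at 0.87 (saline) and 0.78 (PAMAM) on the olfactory bulb arrays, 1.11 and 1.11 on those from hippocampus and 1.31 and 1.48 on those from cortex. The regions did not overlap, with the olfactory bulb lowest and the cortex highest. PAMAM minus saline was -0.09 in the olfactory bulb and 0.18 in the cortex, against a spot noise SD of 0.08 in each. Cx3cr1, the receptor of the neuronal chemokine Cx3cl1 (chr9:119957811-119957870), was at 2.35 and 2.30 on the olfactory bulb arrays, 2.51 and 2.38 on those from hippocampus and 2.61 and 2.78 on those from cortex. Its arrays again ran from the olfactory bulb up to the cortex without overlap between regions. Its other probe (chr9:119959018-119959077) gave 0.39 and 0.51, 0.67 and 0.53, and 0.65 and 0.55, and on it hippocampus and cortex overlapped and PAMAM was below saline in the cortex.

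Csf1r, the receptor of the growth factors Csf1 and Il34 (chromosome 18), was at 3.96 and 3.95 on the olfactory bulb arrays, 4.22 and 4.21 on those from hippocampus and 4.35 and 4.51 on those from cortex. PAMAM minus saline was -0.01 in each of the first 2 regions and 0.16 in the cortex. A pair of further Csf1r probes did not repeat the order of the regions. The second gave 0.75 and 0.76 on the olfactory bulb arrays, 0.35 and 0.19 on those from hippocampus and 0.39 and 0.39 on those from cortex, so that here the olfactory bulb was highest. The third, whose 60 bases cross an intron, gave -0.81 and -0.80, -0.64 and -0.74, and -0.73 and -0.75, with the olfactory bulb lowest.

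P2ry12, an ADP receptor that directs microglial processes (chr3:59020598-59020657), was at -0.07 and 0.01 on the olfactory bulb arrays, 0.25 and 0.17 on those from hippocampus and 0.35 and 0.44 on those from cortex. Its regions were ordered as those of Aif1, without overlap, and PAMAM differed from saline by less than 1 spot noise SD (0.10) in each. Tmem119, a membrane protein used to tell microglia from other macrophages (chr5:114243962-114244021), stood at 0.79 and 0.91, 0.80 and 1.06, and 0.98 and 1.29 in the same order. PAMAM was above saline in each region, by 0.12, 0.27 and 0.31, and the hippocampus overlapped both other regions.

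**Figure D1:**
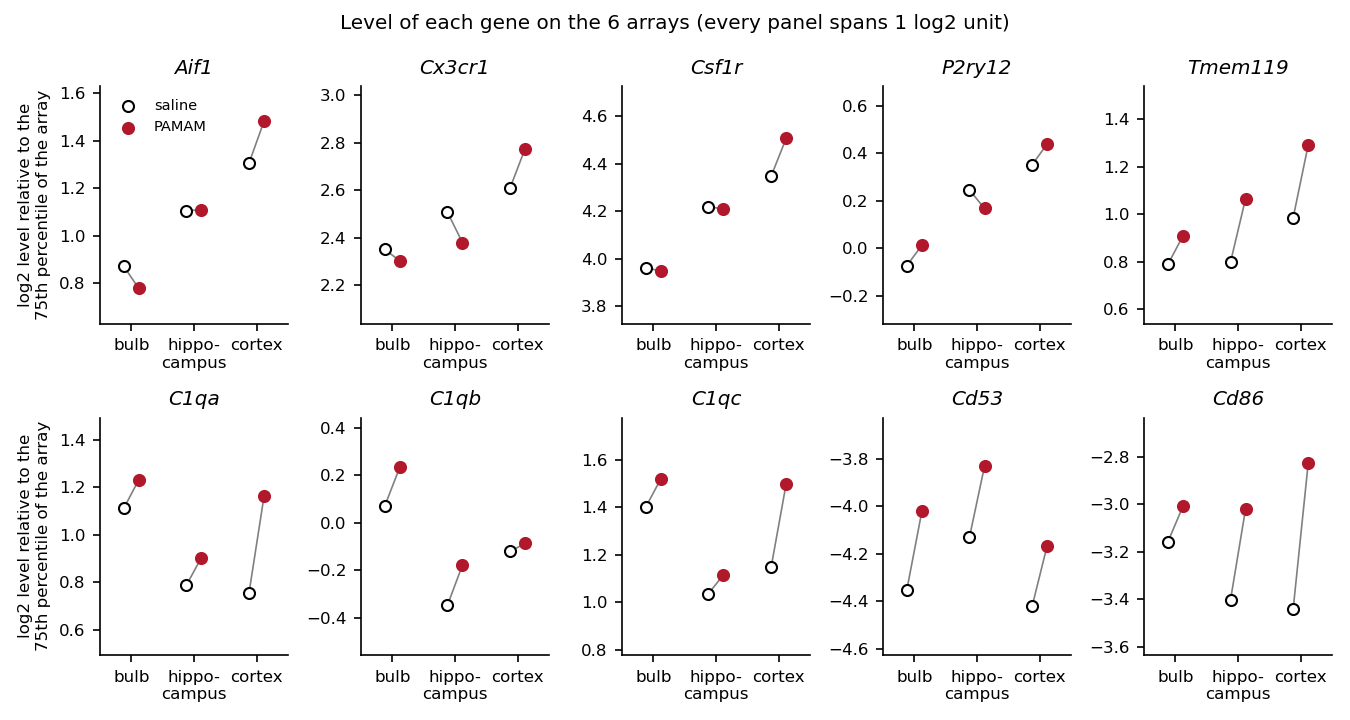
Log2 level, relative to the array's 75th percentile, of each of the 10 genes (brightest probe) on the 6 arrays, with saline as open and PAMAM as filled points joined by a line within each region; each panel spans 1 log2 unit and levels are not comparable between panels. Aif1, Cx3cr1, Csf1r and P2ry12 step up from olfactory bulb to cortex, the C1q genes have their lowest region mean in the hippocampus, and Cd86 has all 3 PAMAM arrays above all 3 saline arrays.

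The C1q genes had another order. C1qa, the A chain, was at 1.11 and 1.23 on the olfactory bulb arrays, 0.79 and 0.90 on those from hippocampus and 0.76 and 1.16 on those from cortex. The cortex saline array was the lowest of the 6 and the cortex PAMAM array lay between the arrays of the olfactory bulb. C1qb, the B chain, was at 0.07 and 0.23, -0.35 and -0.18, and -0.12 and -0.09, and its regions did not overlap. C1qc, the C chain (chr4:136445766-136445825), is the best measured of the genes, with 10 spots per array (8 kept on the hippocampus PAMAM array). Its means were 1.40 ± 0.04 and 1.52 ± 0.05 on the olfactory bulb arrays, 1.04 ± 0.04 and 1.12 ± 0.03 on those from hippocampus and 1.15 ± 0.04 and 1.498 ± 0.04 on those from cortex (SD over spots). The cortex PAMAM array reached the level of the olfactory bulb, while the cortex saline array lay near the hippocampus.

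The immune cell genes were near the lower end of what the arrays measure. Cd53, a tetraspanin of white blood cells (chr3:106565046-106566140, across an intron), was at -4.35 and -4.02 on the olfactory bulb arrays, -4.13 and -3.83 on those from hippocampus and -4.42 and -4.17 on those from cortex. Its cortex saline array was not well above background, so its cortex difference (0.25, 1.19-fold higher with PAMAM) does not count as measured. PAMAM was above saline in each region, but by less than 1 SD of spot noise (0.41 in the olfactory bulb and hippocampus and 0.56 in the cortex). Cd86, a costimulatory ligand of T cells that activated macrophages display (chr16:36603961-36604020), was at -3.16 and -3.01, -3.40 and -3.02, and -3.44 and -2.83. All 3 PAMAM arrays lay above all 3 saline arrays, a pattern that 1.42% of the 20979 genes well above background on all arrays had, and its differences of 0.15, 0.38 and 0.61 stood against a spot noise SD of 0.24, 0.30 and 0.32. This separation of the Cd86 arrays held under each scaling tried, with a gap of 0.05 to 0.17 between the lowest PAMAM and the highest saline array.

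The first comparison asked how the genes stood with PAMAM against saline in each region. In the cortex all 10 genes were higher with PAMAM, with a median log2 difference of 0.22. Among them Cd53 does not count as measured, since its saline array was not well above background. Over the other 9 the median was 0.18, against 0.02 for all genes, where 53.5% of 21480 measured genes were higher. Those at least 25% higher were Cd86 (0.61, 1.53-fold), C1qa (0.41, 1.33-fold) and C1qc (0.35, 1.28-fold), that is 3 of 10, where 7.15% of all genes were that much higher. On the same cortex arrays markers of meninges and of border macrophages were higher with PAMAM too (medians 0.70 and 0.60, given in full further on), and their part in these differences was not tested. In the olfactory bulb 7 of 10 were higher, as were 47.2% of all genes, with a median of 0.12 against -0.01. There 1 gene, Cd53 at 0.33, was at least 25% higher, beside 3.84% of all genes. In the hippocampus 7 of 10 were higher, as were 51.2% of all genes, with a median of 0.10 against 0.00, and Cd86 at 0.38 was at least 25% higher, beside 7.47% of all genes. The sign of Aif1 in the hippocampus turned with quantile normalisation, median scaling and the deposited table, and that of Csf1r in the olfactory bulb with median scaling. With the median of a gene's probes in place of the brightest, 9 of 10 were higher in the cortex and 9 of 10 in the olfactory bulb, since the further Csf1r probes were at -0.0074 and -0.020 in the cortex. By the mirror threshold 0 of the 10 genes were lower in any region, beside 5.79%, 4.44% and 10.1% of all genes in the order olfactory bulb, hippocampus and cortex. The balance of all genes depended on the scaling. Of those past either threshold in the cortex 41.4% were higher, against 57.7% with normexp background, 55.5% with quantile normalisation and 71.2% with median scaling, which moved the median of all genes there from 0.02 to 0.12. In the hippocampus 62.7% were higher, against 83.8%, 52.3% and 43.4%, and in the olfactory bulb 39.8%, against 27.7% with normexp background.

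Differences beyond 2 SD of spot noise were seen for 6 genes in the cortex (Aif1, Cx3cr1, Csf1r, Tmem119, C1qa and C1qc), 2 in the hippocampus (Tmem119 and C1qc) and 1 in the olfactory bulb (C1qc). The other Cx3cr1 probe was at -0.10 in the cortex, and the further Csf1r probes were at -0.0074 and -0.020. How many of all genes passed 2 SD was not counted, so these counts have no background. For C1qc the noise SD was 0.02 to 0.03, and its differences were 0.12, 0.08 and 0.35 in the order olfactory bulb, hippocampus and cortex. C1qa gave 0.12, 0.12 and 0.41, while C1qb gave 0.16, 0.17 and 0.03. The C1q genes thus differed among themselves in the cortex, where C1qa and C1qc were more than 25% higher and C1qb was within 1 SD of its noise (0.10). For 8 of the 10 genes the difference was largest in the cortex, the exceptions being C1qb and Cd53. The share of all genes with this pattern was not counted. Over all genes the cortex differences spread most, from -0.46 to 0.39 between the 5th and 95th percentile. That range was -0.35 to 0.29 in the olfactory bulb and -0.30 to 0.41 in the hippocampus. The 6 genes higher with PAMAM in each of the 3 regions were the C1q genes, Tmem119, Cd53 and Cd86. Of the 9 well above background on all arrays, which leaves out Cd53, these are 5, beside 15.3% of 20979 such genes. The same 6 were found under each scaling tried.

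**Figure D2:**
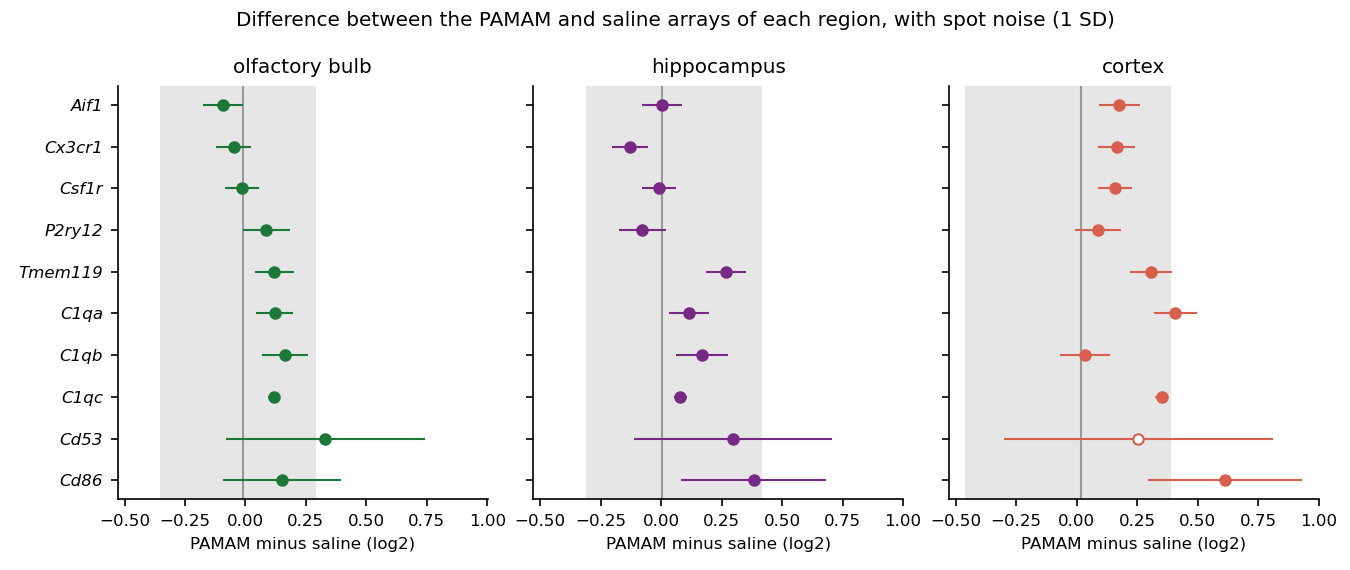
PAMAM minus saline (log2) for the 10 genes in each region, with bars of 1 SD of spot noise; the grey band spans the 5th to 95th percentile of all measured genes, the grey line is their median, and the open point (Cd53 in the cortex) marks a gene not well above background on both arrays. In the cortex all points lie right of 0, with Cd86 at 0.61 and C1qa at 0.41 beyond the band.

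A fit over all 6 arrays with region and treatment as terms (limma, Benjamini-Hochberg over 35332 probes) asked for a difference shared by the regions. It called 0 of the 10 genes and 0 of 24196 genes (0%) at an adjusted p of 0.05, while 1328 genes had an unadjusted p under 0.05. Among those were 3 of the 10, Cd53 (0.29, SE 0.06), Cd86 (0.38, SE 0.11) and Tmem119 (0.23, SE 0.07), each higher in every region (Cd53 with a cortex saline array not well above background). Their limma adjusted p was 0.828, and that of the 10 genes ran from 0.828 to 0.994. The small SE of Cd53 shows only that its 3 differences were alike. Each was below its spot noise SD (0.41, 0.41 and 0.56 in the order olfactory bulb, hippocampus and cortex). The fitted value was above 0 for 9 of 10 genes, with a median of 0.15 against 0.01 for all genes, and Cx3cr1 was the exception. These p-values measure only the spread between these arrays, with 2 residual degrees of freedom. A count of 0 does not show that levels were equal.

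The second comparison set the regions against each other in the same limma fit. Against the cortex, the olfactory bulb was lower in Aif1 (-0.57, SE 0.10, adjusted p = 0.0257), Csf1r (-0.47, SE 0.09, adjusted p = 0.0292) and P2ry12 (-0.43, SE 0.09, adjusted p = 0.0356). That is 3 of 10 genes, where 35.8% of all genes were called in either direction, 15.1% higher and 20.6% lower. Tmem119 (-0.29, adjusted p = 0.0809) and Cx3cr1 (-0.37, adjusted p = 0.0723) had the same sign and missed the threshold. The C1q genes had the opposite sign, at 0.21, 0.26 and 0.14 for C1qa, C1qb and C1qc, with adjusted p of 0.222, 0.0911 and 0.367. The Csf1r call belongs to its brightest probe, since the second was higher in the olfactory bulb (0.37, SE 0.09, adjusted p = 0.0472) and the third was at -0.06. With quantile normalisation the Csf1r call was lost (-0.20, limma adjusted p = 0.118). Leaving out 1 array ended the calls of Csf1r and P2ry12 whichever array it was, and that of Aif1 unless it was the cortex saline array.

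Against the hippocampus, the olfactory bulb was higher in C1qb (0.42, SE 0.08, limma adjusted p = 0.0351), which is 1 of 10 genes where 32.9% of all genes were called, 14.5% higher and 18.4% lower. C1qc (0.38, adjusted p = 0.0663) and C1qa (0.33, adjusted p = 0.107) had the same sign. The differences were alike on the saline and the PAMAM arrays, at 0.42 and 0.41 for C1qb, 0.36 and 0.40 for C1qc and 0.32 and 0.33 for C1qa. The C1qb call was lost with median scaling (0.35, adjusted p = 0.0783). Leaving out any array of either region also ended it, with adjusted p from 0.153 to 0.211. Aif1, Csf1r and P2ry12 were at -0.28, -0.26 and -0.24 without passing the limma test, and the second Csf1r probe was higher (0.49, SE 0.09, adjusted p = 0.0276).

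Between hippocampus and cortex 0 of the 10 genes were called, where limma called 4.28% of all genes (2.15% higher and 2.12% lower). Cd53 alone of the 10 had an unadjusted p under 0.05 (0.31 higher in the hippocampus, limma adjusted p = 0.129). The other 9 were lower in the hippocampus, between -0.29 and -0.08, with a median of -0.20 over the 10 genes against -0.03 for all genes. Both arrays of one region lay above both of the other for 7, 6 and 7 of the 10 genes in the 3 contrasts, and for 76.4%, 74.1% and 53.4% of all genes.

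**Figure D3:**
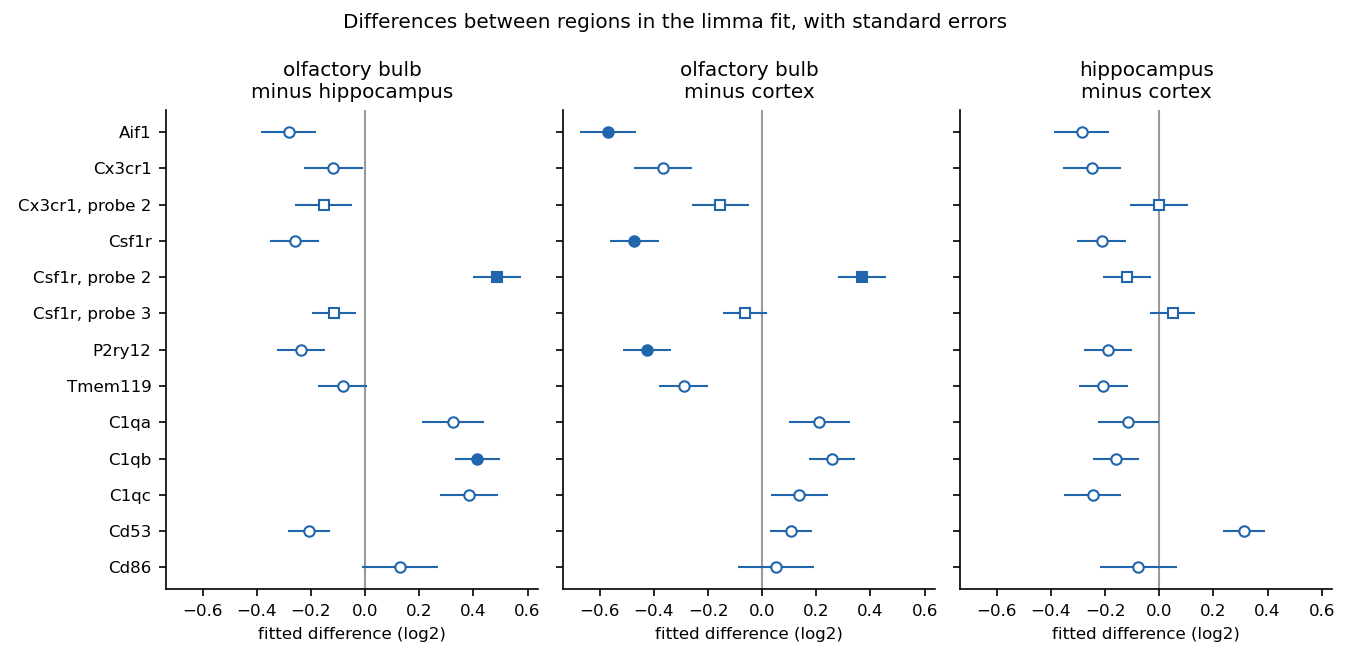
Fitted log2 differences between regions (limma, 6 arrays) for all 13 probes, with bars of 1 SE; circles are the brightest probe of a gene, squares its other probes, and filled symbols have an adjusted p under 0.05. In the olfactory bulb Aif1, Csf1r and P2ry12 are called lower against the cortex only, and C1qb higher against the hippocampus only. C1qa and C1qc lie above 0 in both contrasts of the olfactory bulb without a call. In these contrasts the second Csf1r probe lies opposite the first.

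Because the C1q genes and the 5 identity genes ran apart between regions, their means were set side by side after each gene was centred on its own mean, a grouping made after these values were seen and left untested. The C1q mean minus the identity mean was 0.34 (saline) and 0.46 (PAMAM) for the olfactory bulb, -0.23 and -0.12 for the hippocampus, and -0.27 and -0.18 for the cortex. It was above 0 on both olfactory bulb arrays and below 0 on the other 4. Within each region it was higher on the PAMAM array, by less than the olfactory bulb differed from the other regions.

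**Figure D4:**
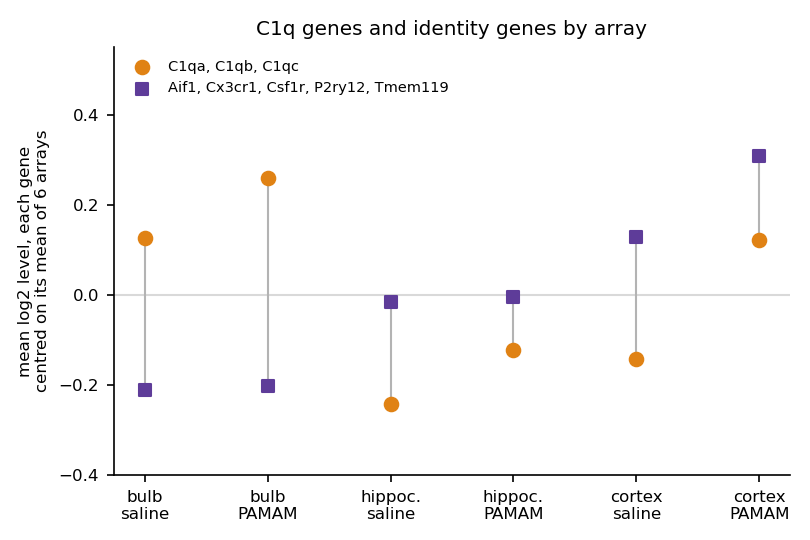
Mean log2 level of C1qa, C1qb and C1qc (circles) and of Aif1, Cx3cr1, Csf1r, P2ry12 and Tmem119 (squares) on each array, every gene centred on its mean over the 6 arrays. C1q genes lie above identity genes in the olfactory bulb (0.13 against -0.21 in saline) and below them in the other regions (-0.14 against 0.13 in cortex saline).

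Further genes of microglia were taken from a list of 45, of which 44 are on the array. With PAMAM, 28 of 43 measured were higher in the olfactory bulb, 26 of 41 in the hippocampus and 27 of 41 in the cortex, with medians of 0.06, 0.03 and 0.08. Past 1.5-fold, a threshold that 0.497%, 2.35% and 1.79% of all genes passed upwards and 1.35%, 0.734% and 2.77% downwards in the order olfactory bulb, hippocampus and cortex, were the fructose transporter Slc2a5, lower in hippocampus (-0.78) and cortex (-0.91), and the hexokinase Hk2, higher in the cortex (0.60). Slc2a5 was among the 2 lowest in each region, at -0.52 in the olfactory bulb. Adora3, an adenosine receptor, was among the 2 highest in each region (0.34, 0.50 and 0.39). Between regions, limma called 11 of 43 lower and 2 higher in the olfactory bulb than in the cortex (median -0.20), beside 20.6% and 15.1% of all genes, among them Selplg (-0.71, adjusted p = 0.0145). The highest was Sall1, a transcription factor listed as a microglia gene (2.22, adjusted p = 0.00596), while 34 of the 43 were lower. Which cells the Sall1 signal came from was not tested. Against the hippocampus 6 were called lower and 3 higher, beside 18.4% and 14.5% of all genes. Spi1, the gene of PU.1, was not well above background on any array.

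The ligands and partners of these receptors were mostly lower with PAMAM in the olfactory bulb (12 of 16 measured, median -0.07) and mostly higher in the cortex (13 of 15, median 0.17). In the hippocampus 8 of 15 were higher (median 0.01). The Csf1r ligand Csf1 was at -0.19, -0.16 and -0.12 in the order olfactory bulb, hippocampus and cortex, and the other ligand, Il34, was at 0.01, 0.16 and 0.13. Cx3cl1, the ligand of Cx3cr1, was at 0.05, 0.15 and 0.21, and Cd200r1, an inhibitory receptor, was past 1.5-fold in the olfactory bulb (-0.75). Limma called Cx3cl1 lower in the olfactory bulb than in the cortex (-0.92, adjusted p = 0.00735) and the hippocampus (-0.40, adjusted p = 0.0379), and Il34 lower than in the cortex (-0.44, adjusted p = 0.0297). Cx3cl1 and Il34 had the sign of their receptors' brightest probes there. The other Csf1r ligand, Csf1, had the opposite sign against the cortex (0.12, limma adjusted p = 0.284). Of the 16 genes tested in this list, limma called 4 lower and 0 higher in the olfactory bulb than in the cortex. Of all genes, 20.6% and 15.1% were so called.

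Of the 16 genes of complement initiation and C3 cleavage on the array, 10 were measured. These include Masp2 of the lectin pathway (0.39 in the cortex) and Cfp of the alternative pathway (0.32), besides genes of the classical pathway. The list was higher with PAMAM in 7, 7 and 6 of 10, with medians of 0.05, 0.08 and 0.11. The C1r protease gene C1ra was the highest in the cortex (0.56) and among the lowest elsewhere (-0.11 and -0.22). Another C1r gene, C1rb, went the opposite way, at 0.20, 0.52 and -0.41 in the order olfactory bulb, hippocampus and cortex. C1rb and C1s (-0.39) were the 2 lowest in the cortex, and C3 stood at -0.16, 0.17 and -0.07. C4b, the next component after C1, was at 0.07, -0.08 and 0.25. Limma called C4b higher in the olfactory bulb than in hippocampus (0.59, adjusted p = 0.0307) and cortex (0.99, adjusted p = 0.0105), and likewise C2 (adjusted p = 0.00539 and 0.0215, with 0.56 against the cortex). C1ra was lower there than in the cortex (-1.92, adjusted p = 0.0115). Of the 7 terminal complement genes 2 were measured, Hc, which encodes C5, and C8g.

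Complement regulators were higher with PAMAM in 10 of 15, 7 of 16 and 11 of 15 measured. Past 1.5-fold in the cortex were Nptx2, a neuronal pentraxin (1.05), Serping1, the C1 inhibitor (0.83), and Cd46 (-0.78), and Nptx2 was also past it in the hippocampus (0.79). Complement receptors were higher in 5 of 10, 6 of 9 and 7 of 8, led in the cortex by calreticulin, Calr (0.37), which stood at 0.38 and 0.29 in the other regions (olfactory bulb first). The integrin gene Itgax was among the lowest in the olfactory bulb (-0.44) and hippocampus (-0.37). No gene of these complement lists was called for PAMAM in the limma fit.

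Genes of microglial activation were higher with PAMAM in 11 of 31 measured in the olfactory bulb (median -0.06), 15 of 22 in the hippocampus (0.16) and 16 of 21 in the cortex (0.18). Those past 1.5-fold, all in the cortex, were the antigen presentation genes Cd74 (1.73) and H2-Eb1 (1.28), the lysozyme Lyz1 (0.83) and the oxidase subunit Ncf1 (0.63). In the olfactory bulb Cd74 and H2-Eb1 were at -0.13 and -0.27. Of the 40 listed genes 9 were not well above background on any array, among them the cytokine genes Tnf, Il1a, Il1b and Il6. The olfactory bulb was higher than hippocampus and cortex in 15 and 19 of 31 by limma, beside 14.5% and 15.1% of all genes. These counts favour the olfactory bulb. Spp1, Clec7a, Gpnmb, Ccl2, Ccl3, Ccl4, Cxcl10, Lilrb4 and Ch25h were measured only there and passed the filter of the fit through its arrays. The direction of these genes was thus set by the filter. By the same limma test the olfactory bulb was lower in 1, the lipase gene Lpl (-4.96, adjusted p = 0.00259, and -3.41, adjusted p = 0.00276), beside 18.4% and 20.6% of all genes.

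Markers of other cells were compared between PAMAM and saline in the same way. Border macrophages, which line vessels and meninges and also express C1q, Csf1r, Cd53 and Cd86, were higher with PAMAM in the cortex in 7 of 9 measured (median 0.60), among them Pf4 (1.08), Mrc1 (0.95), Cbr2 (0.78), F13a1 (0.63) and Stab1 (0.60), and their summed level went from 2.61 to 3.47 in units of the array's 75th percentile. In the hippocampus 7 of 11 were higher (median 0.11, sum 2.85 to 3.21) and in the olfactory bulb 10 of 13 (median 0.08, sum 5.37 to 5.55). Cd163, Cd209g and Clec12a of this list were not well above background on any array. Limma called 9 and 10 of 13 border macrophage genes higher in the olfactory bulb than in hippocampus and cortex (medians 1.09 and 1.06), beside 14.5% and 15.1% of all genes. Of the 13, Cd209f and Lyve1 were measured only in the olfactory bulb and passed the filter of the fit through its arrays. Folr2 and Siglec1 were not measured in the cortex. These counts and medians thus favour the olfactory bulb.

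Meningeal markers were higher with PAMAM in the cortex in 13 of 14 (median 0.70, sum 12.6 to 22.0), choroid plexus markers in 9 of 10 (median 1.0, sum 32.4 to 56.0) and red blood cell markers in 7 of 8 (median 0.51, sum 185.4 to 269.1). In the hippocampus the choroid plexus markers were higher in 15 of 15 (median 0.72, sum 235.3 to 376.3) and the red blood cell markers in 8 of 9 (median 0.49). In the olfactory bulb the medians of these 3 lists were -0.02, -0.02 and 0.04. Monocyte and neutrophil genes had a median of 0.06 in the cortex over 6 measured, and 7 of their 16 genes, among them the monocyte receptor gene Ccr2, were not well above background on any array. Over the lists of neurons, astrocytes, oligodendrocytes, lymphocytes, and endothelium with mural cells, the cortex medians were 0.07, 0.08, -0.12, -0.12 and 0.13. Their hippocampus medians were -0.01, 0.00, 0.17, 0.15 and 0.04 in the same order. The part of all these other cells in the differences of the 10 genes was not tested.

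**Figure D5:**
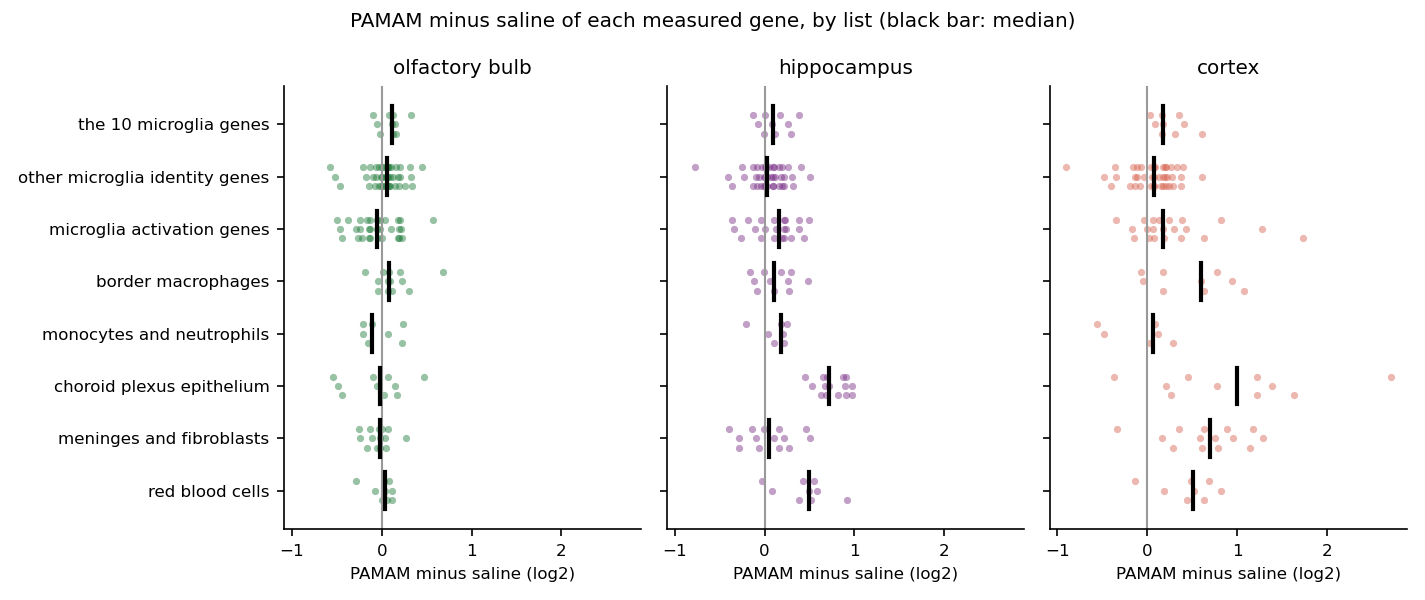
PAMAM minus saline (log2) of each measured gene in 8 lists, by region, with the list's median as a black bar (each point 1 gene, 1 array per treatment). In the cortex the lists of border macrophages, choroid plexus, meninges and red blood cells lie further right (medians 0.60, 1.0, 0.70 and 0.51) than the 10 genes (0.18 over the 9 measured there).

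The genes whose pattern over the 6 arrays was most like the mean of the 10 were sought among 20322 genes by the root mean square of the difference between centred log2 profiles. The closest by name were Zc3h11a, Sec61a1, Ly86, Camsap1, Pkn3 and Ak3, at 0.02 to 0.03, with 4 probes named by position among the nearest 10. Ly86, a partner of an innate immune receptor, was the one that is also on the microglia list. The mean profile itself ranged over 0.33, from -0.10 on the hippocampus saline array to 0.22 on the cortex PAMAM array.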

How the data were processed

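The scanner files, as deposited, give each spot's intensity (linear), extracted with Agilent Feature Extraction 10.7.3.1 on array design 028005 with probes placed on mm9, per the file headers. A deposited table of the authors' log2 values is close to the values below centred on each probe's median (r above 0.9999, median absolute difference 0.0032 to 0.017 per array; column medians -0.09, -0.06, -0.05, 0.03, 0.04 and 0.03 in the order of olfactory bulb, hippocampus and cortex, saline before PAMAM). How its spots were combined stays unknown.

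From the scanner files, log2 of the processed signal minus the array's 75th percentile was taken (452.0 to 709.6 intensity units), outlier spots were left out and spots of a probe averaged. All 6 arrays share 1 slide. Within a region, genes were measured only if both of its arrays read the probe well above background. Differences between regions and a shared treatment difference were fitted with limma 3.58.1 in R 4.3.3 (region + treatment) on 35332 probes well above background on at least 2 arrays, and the fit was tested on simulated data. Spot noise came from the 50 repeated probes nearest in brightness.

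The 10 genes and the 17 other gene lists (293 of 299 entries on the array) were chosen with earlier results of these data known. Text names all 10 genes, and from a list mainly the 2 highest, the 2 lowest and those past 1.5-fold; further list genes, such as C4b, Csf1, Il34 and Spi1, were named after their values were seen. Normexp background, quantile and median scaling, the deposited table, other filters, the median of a gene's probes, a trended variance and left-out arrays were tried.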

Additional observations from a re-analysis of the deposited data

How the results depend on the processing

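With 1 array per group, results rest on 6 arrays, and dim genes such as Cd53 and Cd86 are limited by their signal over background. The limma fit has region as a term, so it sets PAMAM against saline within each region. No paired analysis by replicate number was possible because each group has 1 array. A slide block could not be fitted, as all arrays share 1 slide. No alternative called any of the 10 genes or any other gene for PAMAM in the limma fit shared by the regions. The cause of each change below was not tested, except that left-out arrays lower the residual degrees of freedom and filters change the number of genes tested.

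The genes of the 10 that were at least 25% higher with PAMAM in the olfactory bulb went from 1 to 0 with normexp background and with the filter of all 6 arrays. In the hippocampus they went from 1 to 0 with normexp background and median scaling, and in the cortex from 3 to 5 with median scaling, where the median of the 10 went from 0.22 to 0.32 and that of all genes from 0.02 to 0.12. Of all genes, those at least 25% higher, or lower by the mirror threshold, numbered 2229, 2643 and 3714 in the order olfactory bulb, hippocampus and cortex. They were 617, 1272 and 1718 with normexp background, 11591, 12960 and 8759 with no filter on dim probes, and 1448 in the olfactory bulb with the filter of all 6 arrays.

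Of the 10 genes, limma called 1 in olfactory bulb minus hippocampus. This became 3 with normexp background, 2 with quantile normalisation, the filter of all 6 arrays and the median of a gene's probes, 5 with a trended variance, 0 with median scaling and no filter, and 0 to 1 with an array left out (1 only without a cortex array). The count of 3 in olfactory bulb minus cortex became 6 with a trended variance, 0 with no filter, and 0 to 1 with an array left out. Of all genes, 7956 were called in olfactory bulb minus hippocampus (3233 with no filter, 979 to 7302 with an array left out), and 8653 in olfactory bulb minus cortex (3412 with no filter, 953 to 5071 with an array left out). In hippocampus minus cortex 1035 were called, against 2519 with normexp background, 2023 with the filter of all 6 arrays, 3639 with a trended variance, 0 with no filter (4665 at an unadjusted limma p under 0.05) and 0 with any array left out. Higher genes made up 42.3% of calls in olfactory bulb minus cortex (31.7% with median scaling, 33.1% with normexp background) and 50.3% in hippocampus minus cortex (39.6% with normexp background). Median scaling moved the median of all genes to -0.11 in olfactory bulb minus hippocampus and -0.17 in olfactory bulb minus cortex, and normexp background the latter to -0.13, so single differences there are to be read against these shifts.

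Signs turned mostly in values near 0. In the shared PAMAM fit, Cx3cr1 turned to 0.015 with median scaling and 0.0043 with the deposited table, and Csf1r to -0.053 with the median of its probes. With arrays left out, Cx3cr1 ranged from -0.088 to 0.059, Aif1 from -0.045 to 0.090 and Csf1r from -0.012 to 0.075. With that median Csf1r also turned to 0.49 (olfactory bulb minus hippocampus) and 0.37 (olfactory bulb minus cortex), since its probes oppose each other. In olfactory bulb minus hippocampus Cx3cr1 turned to 0.022 with quantile normalisation, and Cd86 to -0.024 with normexp background and between -0.046 and 0.30 with an array left out. In olfactory bulb minus cortex Cd53 turned to -0.23, -0.054 and -0.015 and Cd86 to -0.15, -0.057 and -0.072 (normexp background, quantile normalisation, median scaling), and Cd86 ranged from -0.12 to 0.22 with an array left out. In hippocampus minus cortex Cd53 turned to -0.040 with normexp background, and with an array left out C1qa ranged from -0.26 to 0.031 and Cd86 from -0.25 to 0.097.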
